A study of Mus musculus with 4 samples.

Results

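The 7 genes Lsm1 to Lsm7 encode Sm-like (LSM) proteins, and their transcripts were measured by RNA sequencing in pro-B cells, which were sorted as B220+CD43+ cells from the bone marrow of mice. They were taken from the 23312 genes of the deposited expression tables by name, and the family was selected on the FPKM values of Lsm5, which were much lower in one genotype. All were of the C57BL/6 strain and carried RERTCre, a recombinase that tamoxifen switches on in many tissues. Cnot3, a subunit gene of the CCR4-NOT deadenylase complex, was flanked by loxP sites in one genotype (Cnot3 fl/fl) and wild type in the other (Cnot3 +/+). Both genotypes received 1 mg tamoxifen per dose on days 1, 2, 4 and 7 and were taken for analysis on day 10, and each had 2 libraries, from individual mice. The age of the mice is not stated in the labels, and since Cre was not restricted to B cells, the other cells of the marrow could recombine too.

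LSM proteins assemble into rings that hold the end of an RNA. The cytoplasmic ring of Lsm1 to Lsm7 binds the shortened tail that deadenylation leaves on an mRNA and, with its partner Patl1, promotes removal of the cap. In the nucleus Lsm8 takes the place of Lsm1, and that ring binds the end of U6 RNA, a core RNA of the spliceosome. Lsm2 to Lsm7 are therefore shared by both rings, and each has a counterpart in the Sm ring of the other spliceosomal RNAs. Lsm5, Lsm6 and Lsm7 lie side by side in the ring, as do their counterparts SmE, SmF and SmG.

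Values were FPKM, a unit that corrects fragments for transcript length and library size. The annotation and the scaling behind them are not given, so comparisons of levels between genes are a description. Between 14684 and 15126 genes were above 0 in a library, no read counts were given, and the spacing of the lowest values put the relative depth of the libraries between 0.746 and 1, with the 2 Cnot3 fl/fl libraries the deeper. Cnot3 itself was at 41.6 and 39.3 FPKM in Cnot3 +/+ libraries and 39.0 and 40.3 FPKM in Cnot3 fl/fl libraries, and which exons were flanked by loxP sites is not given, so the whole-gene value does not check the genotype labels. One library, Cnot3 +/+ replicate 1, stood apart in sex-linked transcripts, with Xist at 0.024 FPKM against 54.3 to 63.1 FPKM in the other 3. The Y-linked genes Eif2s3y and Ddx3y were at 29.3 and 16.0 FPKM in it and at 0.0275 FPKM or less in the other 3. By these transcripts that library came from a male and the other 3 from females. Sex was therefore not balanced between the genotypes, and the part of sex in any difference was not tested. B-lineage genes were present in all libraries but lower in Cnot3 fl/fl: the summed level of 12 B-lineage markers was 561 and 600 FPKM there against 857 and 1241 FPKM, and 6 of the 12 were called lower (limma, adjusted p under 0.05), where 3.28% of all genes tested were. Markers of plasmacytoid dendritic cells were far more abundant in every library. The 10 genes summed to 8837 and 10430 FPKM in Cnot3 fl/fl against 11241 and 10746 FPKM, and 1 of them, Cox6a2, was called lower. For 9 neutrophil and monocyte markers the sums were 557 and 577 in Cnot3 fl/fl against 441 and 448 FPKM, and 3 of them, Elane, Ctsg and Itgam, were called higher, where 6.22% of all genes were. None of the markers in these 3 lists was at 0. The summed level of 9 T and NK cell markers was 911 and 1091 in Cnot3 fl/fl against 881 and 924 FPKM. Only 1 of them, Cd8a, was called higher, at 129 and 135 against 15.7 and 25.7 FPKM (limma adjusted p = 0.024). The log2 fold change (Cnot3 fl/fl minus Cnot3 +/+) was negative in 5 of the 9, Cd3e, Cd3d, Cd3g, Cd4 and Ccl5, none of them called. It was positive in Nkg7, Klrd1 and Ncr1, also not called, and in Cd8a. The sum of 7 erythroid markers lay between 22.6 and 64.1 FPKM, with Epor at 0 in 1 library. Fewer cells of a type and less RNA per cell cannot be told apart in such samples, and the part of cell composition in any LSM result was not tested.

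Lsm5 was the ring gene that differed most between the genotypes. Its level was 3.43 and 3.10 FPKM in the Cnot3 fl/fl libraries and 11.9 and 12.0 FPKM in the Cnot3 +/+ libraries. Both Cnot3 fl/fl libraries lay well below both Cnot3 +/+ libraries, and the values within each genotype were close. The mean was 3.27 ± 0.238 FPKM against 11.9 ± 0.0763 FPKM (SD, n = 2 each), 3.66-fold lower in Cnot3 fl/fl, which is -1.60 ± 0.10 (standard error) as a log2 fold change. Fold changes in log2 are on the log2(FPKM + 1) scale throughout, and where values are joined by "against" with no genotype named, the Cnot3 fl/fl libraries come first. This difference is the one that picked the family, so it is given as a description and carries no test. Of the 11017 genes tested, those whose mean over the libraries reached 1 FPKM, 44 had a log2 fold change as low as that of Lsm5 or lower, counting Lsm5 itself. Without Cnot3 +/+ replicate 1, the library that stood apart in sex-linked transcripts, the log2 fold change of Lsm5 was -1.61.

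Lsm6, the neighbour of Lsm5 in the ring, was the other ring gene called lower by the test across all genes. It was at 8.25 and 8.59 FPKM in Cnot3 +/+ libraries and 4.72 and 5.09 FPKM in Cnot3 fl/fl libraries. The genotypes did not overlap, with Cnot3 fl/fl lower, an order that 31.7% of all genes tested had. The mean of 4.90 ± 0.264 FPKM was 1.72-fold below that of 8.42 ± 0.240 FPKM (SD, n = 2 each), and the log2 fold change was -0.67 (standard error 0.10, limma adjusted p = 0.040). With 1 library left out at a time the log2 fold change stayed between -0.72 and -0.63, but the gene was not called without any one of the 4 libraries (limma adjusted p between 0.095 and 0.22). Its limma adjusted p was 0.075 when genes of low value were also tested. In the authors' deposited table Lsm6 was marked as significant, with a q-value of 0.036, where 2.51% of the 12154 genes with a completed test there were marked lower and 6.59% in either direction.

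**Figure D1:**
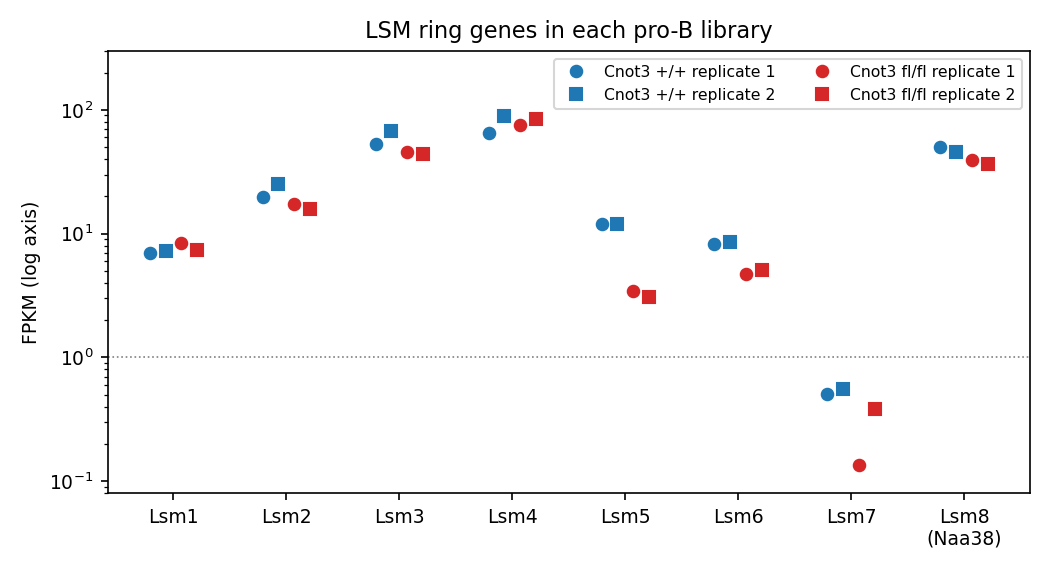
FPKM on a log axis for each LSM ring gene, and for Lsm8 under its older symbol Naa38, in the 4 libraries, with blue for Cnot3 +/+ and red for Cnot3 fl/fl, circles for replicate 1 and squares for replicate 2. The dotted line marks the minimum mean of 1 FPKM for testing; Lsm5 sits at 11.9 and 12.0 FPKM in blue and at 3.43 and 3.10 FPKM in red, and Lsm7 lies under the line in every library.

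The promoters of the 2 ring genes called lower are shown because both genes were lower in the same libraries. Each is the stretch of 250 bases before the RefSeq start (GRCm38.p6, minus strand), read 5′ to 3′ towards the gene, at chr6:56704700-56704949 for Lsm5 and chr8:78821153-78821402 for Lsm6. Capitals mark matches, on either strand, to the GC box letters GGGCGG, the ETS core letters CCGGAAG, the start-site motif letters TATAAA, the E box letters CACGTG or the motif CCAAT.
Lsm5: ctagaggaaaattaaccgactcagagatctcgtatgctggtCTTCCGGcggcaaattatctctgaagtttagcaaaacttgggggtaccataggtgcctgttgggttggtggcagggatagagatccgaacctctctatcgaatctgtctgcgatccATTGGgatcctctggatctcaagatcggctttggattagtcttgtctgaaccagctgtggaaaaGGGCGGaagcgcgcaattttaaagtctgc
Lsm6: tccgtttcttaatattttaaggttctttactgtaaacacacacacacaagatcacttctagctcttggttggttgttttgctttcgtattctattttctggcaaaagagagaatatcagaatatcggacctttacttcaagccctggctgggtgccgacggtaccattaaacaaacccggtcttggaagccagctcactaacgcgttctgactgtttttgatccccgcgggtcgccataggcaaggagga
The Lsm5 window holds 1 ETS core match, 1 match to the motif CCAAT and 1 GC box match. Such matches are found in 6.91%, 33.8% and 32.7% of all 32851 promoter windows of that length. The Lsm6 window holds none of the 5 motifs. The GC content was 48.8% in the Lsm5 and 44.8% in the Lsm6 window, below the median of 52.4% over all windows. A match describes the letters only, and no data on binding were used here.

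Lsm7, the third gene of this side of the ring, had very low values. It was at 0.504 and 0.551 FPKM in Cnot3 +/+ libraries and 0.136 and 0.380 FPKM in Cnot3 fl/fl libraries, the lowest of the ring genes in each library. The Cnot3 fl/fl values were again the lower ones, but Lsm7 did not reach the minimum mean of 1 FPKM and was not tested, and in the authors' deposited table its q-value was 0.70. At a mean of 0.393 FPKM over the 4 libraries it lay 17.0-fold below Lsm6. The part of annotation and quantification in this low level was not tested.

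The 3 remaining shared subunits showed smaller differences or none that could be resolved. Lsm2 was at 19.8 and 25.2 FPKM in Cnot3 +/+ libraries and 17.4 and 15.7 FPKM in Cnot3 fl/fl libraries (log2 fold change -0.41, standard error 0.14, limma adjusted p = 0.12). Lsm3 was at 46.0 and 44.2 against 52.7 and 67.3 FPKM (log2 fold change -0.39, standard error 0.13, limma adjusted p = 0.12). In both genes the Cnot3 fl/fl libraries lay below the Cnot3 +/+ libraries without overlap, an order that 31.7% of all genes tested had. The Cnot3 +/+ libraries were spread widely, and neither gene passed the test. Lsm4, the most abundant ring gene, was at 75.9 and 83.8 against 65.3 and 89.1 FPKM. Its Cnot3 fl/fl values fell between the Cnot3 +/+ values, and its log2 fold change of 0.06 had a 95% interval from -0.38 to 0.50 (limma adjusted p = 0.82), which includes changes of either sign. Without Cnot3 +/+ replicate 1 or without Cnot3 fl/fl replicate 2 the sign of this small value was negative.

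Lsm1, which defines the cytoplasmic ring, was the one ring gene with higher values in both Cnot3 fl/fl libraries. It was at 8.43 and 7.35 FPKM there and at 6.92 and 7.17 FPKM in Cnot3 +/+ libraries. The gap between the genotypes was narrow, 7.17 to 7.35 FPKM, and the log2 fold change of 0.14 (95% interval -0.14 to 0.43) did not pass the test (limma adjusted p = 0.41). Lsm8, which defines the nuclear ring, is listed in these files under its older symbol Naa38, and was at 49.8 and 45.4 FPKM in Cnot3 +/+ libraries and 39.3 and 36.7 FPKM in Cnot3 fl/fl libraries (log2 fold change -0.32, standard error 0.09, limma adjusted p = 0.082). Lsm8 was thus the more abundant of the alternative subunits in every library, 4.66-fold and 4.99-fold above Lsm1 in Cnot3 fl/fl and 7.20-fold and 6.34-fold above it in Cnot3 +/+ libraries. The ratios of the genotypes did not overlap. With 2 libraries against 2, an exact permutation test of such a ratio cannot go below p = 0.333, so none was run.

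Counted over the family, 2 of the 6 tested ring genes were called lower, none higher, and 4 did not pass (limma, adjusted p under 0.05). The called genes were Lsm5, which chose the family, and Lsm6, the only other call among the members. Over all 11017 genes tested, 3.28% were called lower, 6.22% higher and 9.49% in either direction. At an unadjusted p under 0.05, 4 of the 6 ring genes passed, as did 33.8% of all genes tested. Of all 7, the Cnot3 fl/fl libraries lay below the Cnot3 +/+ libraries in 5, above them in 1 and overlapped them in 1. Among the 6 tested genes they lay below in 4, where 31.7% of all genes tested had this order and 64.4% did not overlap in either direction. The median log2 fold change of the 6 tested members was -0.40, against -0.01 over all genes tested. Because Lsm5 chose the family on the same libraries, nothing is read from these counts beyond the description.

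The order of levels along the ring changed in its lower part. In all 4 libraries Lsm4 was highest, followed by Lsm3 and Lsm2, with Lsm6 at rank 5 and Lsm7 last. The ranges of Lsm4 and Lsm3 overlapped in the Cnot3 +/+ libraries but not in the Cnot3 fl/fl libraries. Lsm5 and Lsm1 exchanged places: Lsm5 had rank 4 and Lsm1 rank 6 in both Cnot3 +/+ libraries, and Lsm1 had rank 4 and Lsm5 rank 6 in both Cnot3 fl/fl libraries. Lsm6 stood at 0.694 and 0.716 times the level of Lsm5 in Cnot3 +/+ and at 1.37 and 1.64 times in Cnot3 fl/fl libraries. By contrast, the ratio of Lsm3 to Lsm2 lay between 2.64 and 2.82 in all 4 libraries. These ratios compare FPKM within a library, and those with Lsm5 carry the difference that chose the family.

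The genes of the Sm ring give the counterparts of each LSM gene, Snrpd1, Snrpd2 and Snrpd3 for Lsm2 to Lsm4 and Snrpe, Snrpf and Snrpg for Lsm5 to Lsm7. Of 8 Sm genes 7 were tested, of which 2 fell, none rose and 5 did not pass (28.6% called, against 9.49% of all genes). The 2 that fell were Snrpf and Snrpg. Snrpf, the counterpart of Lsm6, was at 15.4 and 16.9 against 27.9 and 28.6 FPKM (log2 fold change -0.77, standard error 0.08, limma adjusted p = 0.030). Snrpg, the counterpart of Lsm7, was at 15.8 and 19.3 against 27.9 and 34.5 FPKM (log2 fold change -0.80, standard error 0.15, limma adjusted p = 0.046). Snrpe, the counterpart of Lsm5, was at 22.8 and 24.7 against 22.4 and 33.2 FPKM, with overlapping genotypes and a log2 fold change of -0.19 (95% interval -0.71 to 0.32). For Snrpb, which occupies the place of Lsm1 or Lsm8, it was -0.35 (limma adjusted p = 0.076). All 7 tested Sm genes had a negative log2 fold change, with a median of -0.19, and the pairing of the 2 rings was chosen after the values were seen.

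**Figure D2:**
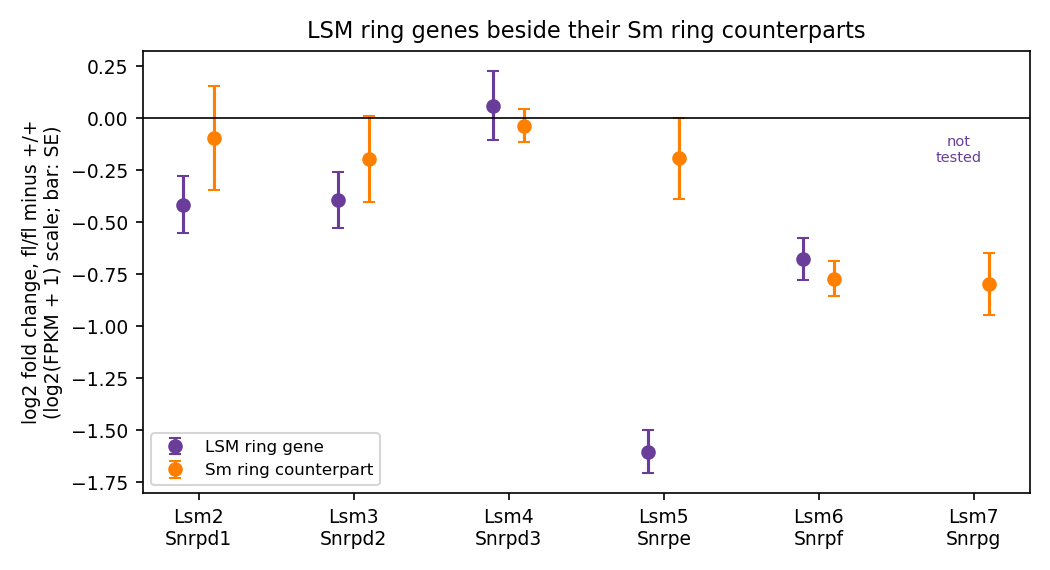
Log2 fold change (Cnot3 fl/fl minus Cnot3 +/+, log2(FPKM + 1) scale, bars: standard error) of each LSM gene shared by both rings in purple and of its Sm counterpart in orange. Lsm6 and Snrpf lie at -0.67 and -0.77, whereas Lsm5 lies at -1.60 and Snrpe at -0.19; Lsm7 was not tested.

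Other LSM proteins went both ways. Of 7 such genes 1 rose, 1 fell and 5 did not pass (28.6% called, against 9.49% of all genes). The authors' deposited table marked 0 of them, where 6.59% of genes with a completed test were marked. Lsm10, which belongs to the U7 particle that processes histone mRNAs, was at 19.9 and 20.7 FPKM in Cnot3 +/+ libraries and 30.4 and 34.8 FPKM in Cnot3 fl/fl libraries (log2 fold change 0.66, standard error 0.10, limma adjusted p = 0.040). Its partner Lsm11 was at 1.89 and 1.68 against 1.91 and 1.80 FPKM. Lsm12 was at 5.25 and 6.01 against 9.69 and 8.68 FPKM (log2 fold change -0.62, standard error 0.12, limma adjusted p = 0.046). The larger proteins Lsm14a and Lsm14b, which bind decapping factors, had log2 fold changes of 0.08 and -0.05. The median of the 7 was -0.04.

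Decapping and 5′ decay factors act after the cytoplasmic ring has bound. Of the 10 such genes tested 0 were called by limma, where 9.49% of all genes were, and 0 were marked in the authors' deposited table. At an unadjusted p under 0.05, 5 of the 10 passed, against 33.8% of all genes. Their median log2 fold change was 0.02. Patl1, which binds the ring directly, was at 16.7 and 15.4 FPKM in Cnot3 +/+ libraries and 15.1 and 15.2 FPKM in Cnot3 fl/fl libraries. The scavenger decapping gene Dcps and the decapping enhancers Edc3 and Edc4 had log2 fold changes of 0.29, 0.29 and 0.27 (limma adjusted p = 0.070, 0.077 and 0.080). The helicase gene Ddx6 had -0.24 (limma adjusted p = 0.12). The lowest value of the list, -0.47, was that of the decapping enzyme gene Dcp2 (limma adjusted p = 0.13). Dcp2 was at 7.68 and 6.19 against 11.3 and 8.74 FPKM, without overlap, an order that 31.7% of all genes tested had.

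Among 23 genes of U6 RNA maturation and of the U4/U6.U5 particle, 2 rose, none fell and 21 did not pass (8.7% called, near the 9.49% of all genes), with a median log2 fold change of 0.05. Those that rose, Eftud2 and Prpf6, encode U5 components, at 72.7 and 83.4 against 50.1 and 55.0 FPKM and at 42.0 and 44.3 against 31.9 and 33.2 FPKM (limma adjusted p = 0.045 and 0.047). The 11 CCR4-NOT subunit genes act before the cytoplasmic ring. Of these, Cnot6 fell (log2 fold change -0.57, limma adjusted p = 0.040), none rose and 10 did not pass. That is 9.09% called, again near the share of all genes. The authors' deposited table marked 0 genes in the U6 list and 0 in the CCR4-NOT list, against 6.59% of genes with a completed test. With any 1 library left out, no member of the LSM, Sm, decapping, U6 or CCR4-NOT lists was called.

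**Figure D3:**
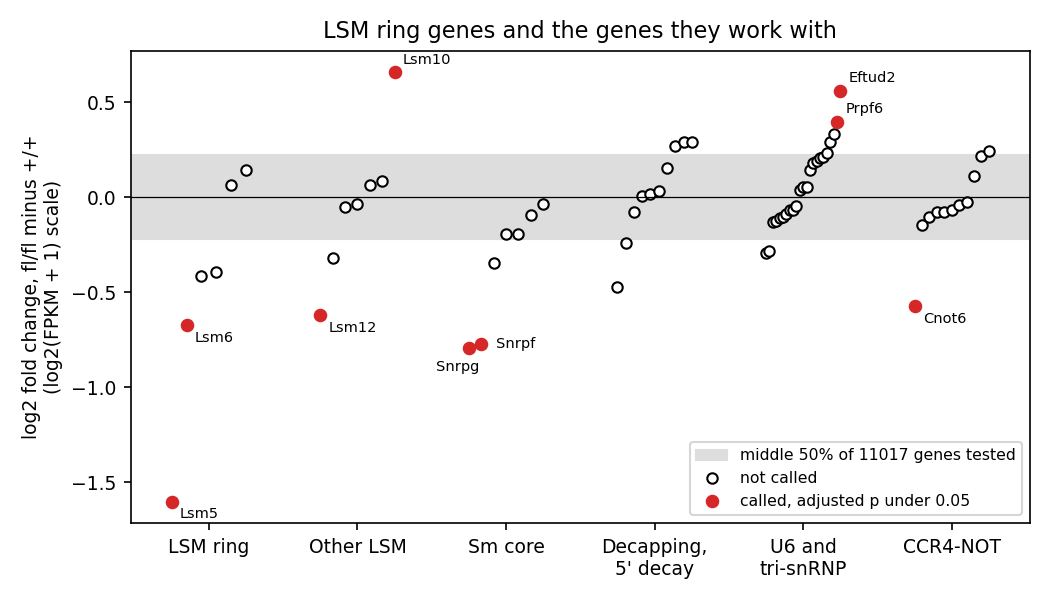
Log2 fold change (Cnot3 fl/fl minus Cnot3 +/+, log2(FPKM + 1) scale) of each tested gene in 6 lists, filled red where called at a limma adjusted p under 0.05, with the middle 50% of all 11017 genes in grey. The LSM ring list reaches down to -1.60, the decapping list lies between -0.47 and 0.29 with no call, and the U6 list has its 2 calls above 0.

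Lsm5 lies on chr6:56651057-56654693 (mm9, starts counted from 1), and no other gene shared its locus in the deposited table. Avl9, the nearest gene to the right at 10.2 kb, was at 8.87 and 7.33 FPKM in Cnot3 +/+ libraries and 8.83 and 8.48 FPKM in Cnot3 fl/fl libraries (log2 fold change 0.09, standard error 0.12, limma adjusted p = 0.64), with overlapping genotypes. Pde1c, the nearest to the left at 331 kb, was below 0.5 FPKM in every library and not tested. The neighbours of the other members were looked at after the values were seen. Lsm3 (chr6:91466029-91472614) starts 146 bases from Xpc, a DNA repair gene, in the deposited loci, and the GENCODE annotation places them on opposite strands, facing away from each other. Xpc was at 20.3 and 18.5 against 13.7 and 11.6 FPKM (log2 fold change 0.58, standard error 0.11, limma adjusted p = 0.048), the opposite direction to Lsm3 across that short gap. Xpc was not called without any one of the 4 libraries (limma adjusted p between 0.093 and 0.24). Sppl2b, 65 bases from Lsm7 (chr10:80315570-80317954), was between 20.6 and 24.5 FPKM in all libraries while Lsm7 stayed under 0.6 FPKM.

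Transcript length differed among the members, and fold changes differed between classes of length. The longest annotated coding transcript was 494 bases for Lsm5, between 743 and 925 bases for Lsm2, Lsm3 and Lsm4, 1129 bases for Lsm7, 2663 bases for Lsm1 and 3792 bases for Lsm6 (GENCODE M21, lengths only). Of 552 tested genes under 1000 bases, 47 (8.51%) were called lower, and their median log2 fold change was -0.12. In the classes from 1000 to under 2000, from 2000 to under 4000 and from 4000 bases up, 3.9%, 2.69% and 2.76% were called lower, with medians of 0.03, 0.02 and -0.05, so the medians did not follow length in one direction. From the shortest class to the longest, 5.8%, 8.03%, 6.71% and 4.66% were called higher. Genes under 1000 bases also differed between replicates, with medians of 0.10 and 0.09 for replicate 2 minus replicate 1 in Cnot3 fl/fl and Cnot3 +/+ libraries, against -0.02 and -0.08 for genes of 4000 bases and more. Lsm5 was 1 of 10 genes under 1000 bases with a log2 fold change of -1.60 or lower. For Lsm6, also called lower, the longest annotated transcript had 3792 bases. Which transcripts of a gene were expressed is not given. The part of transcript length in these differences was not tested, and the length classes were chosen after the values were seen.

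**Figure D4:**
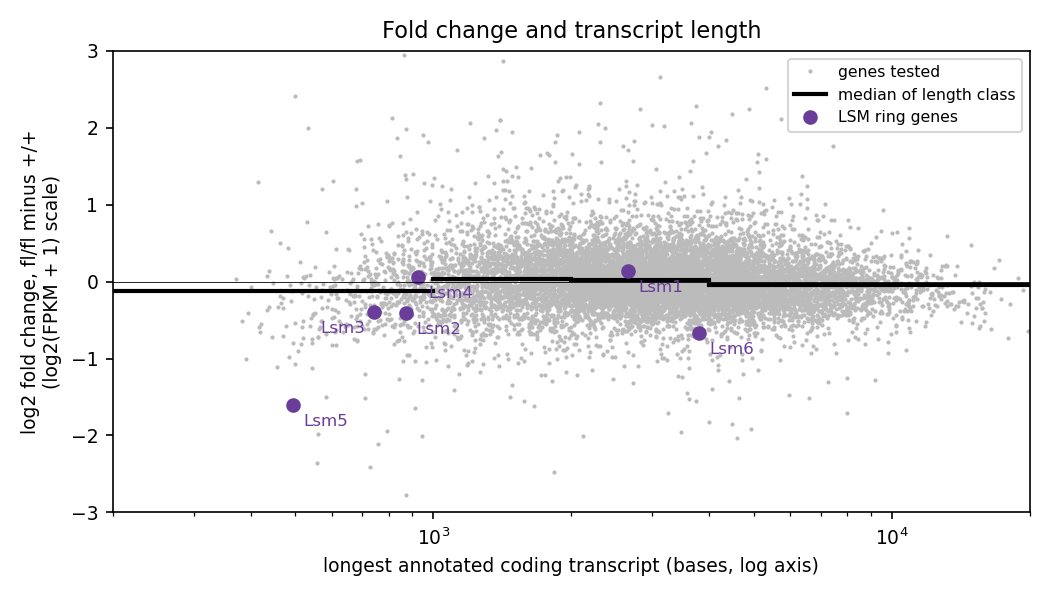
Log2 fold change (Cnot3 fl/fl minus Cnot3 +/+, log2(FPKM + 1) scale) against the longest annotated coding transcript in bases on a log axis, with tested genes in grey, the median of each length class as a black line and the tested LSM ring genes in purple. Lsm5 is at 494 bases and -1.60, Lsm6 at 3792 bases and -0.67, and 14 genes lie outside the axes.

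The 5 tested genes whose values over the 4 libraries were most like those of Lsm5 were Ddn, Ccdc162, Cdkn2c, Hes1 and Rpl23a, by the Euclidean distance between centred log2 values (0.29 to 0.43, against a span of 1.67 for Lsm5 itself). Cdkn2c, an inhibitor of G1 cyclin-dependent kinases, was at 35.1 and 30.6 FPKM in Cnot3 +/+ libraries and 13.1 and 12.9 FPKM in Cnot3 fl/fl libraries. Hes1, a target of Notch signalling, was at 0.807 and 0.554 against 2.89 and 4.78 FPKM. Rpl23a, a ribosomal protein gene, also had low values, 0.627 and 0.392 against 5.48 and 4.40 FPKM. The part of quantification in these values was not tested. The nearest ring gene was Lsm6 at a distance of 0.94, and the farthest was Lsm1 at 1.74. With 4 libraries and genes picked for their likeness, these values are a description.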

How the data were processed

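RNA from B220+CD43+ pro-B cells was sequenced in 4 libraries, 2 per genotype; per the labels' protocols, libraries were made with a stranded mRNA kit. Build mm9 is named in the submitters' processing notes, as are Cufflinks and Cuffnorm (both 2.2.1), TopHat2 2.0.13, Bowtie2 2.2.3.0 and bcl2fastq 1.8.4; the sources used here do not give their roles, the annotation, the strand setting or the scaling. The authors deposited 1 FPKM value per gene and library, and a table with 1 FPKM value, a p-value and a q-value per gene and comparison, per the file headers. Whether reads shared with copies of these genes were split is not given.

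FPKM values are not counts, so log2(FPKM + 1) was tested with limma 3.58.1 in R 4.3.3 (two-sided, mean-variance trend, genotype as the only term) in the 11017 genes whose mean reached 1 FPKM. Benjamini-Hochberg adjustment covered all of these, with calls at an adjusted p under 0.05, 2 residual degrees of freedom and 2.69 from the prior. The script was tested on simulated data with independent errors and 200 changed genes. It called 1.2% of log2 changes of 0.5, 52.8% of changes of 1 and 90.8% of changes of 2. A gene that was not called is therefore not shown to be unchanged. The absolute depth is unknown.

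Members and gene lists were chosen with earlier results of these data known. All ring members were named. From each other list, genes past the threshold were named, or otherwise up to 4 with the smallest p; the 5 genes most like Lsm5 and its nearest neighbours were named too. Dcp2 and the members given for their role alone (Snrpe, Snrpb, Lsm11, Lsm14a, Lsm14b, Patl1) were chosen after their values were seen. Lsm8 was matched to Naa38 through RefSeq synonyms. Starts in the locus column were taken to count from 0, since the span then equals the RefSeq gene length in 7559 of 21488 genes, against 479 if counted from 1, and are printed counting from 1. Promoter sequences are from RefSeq (GRCm38.p6). Other pseudocounts, filters, scalings, priors, left-out libraries and a replicate term were tried.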

Additional observations from a re-analysis of the deposited data

How the results depend on the processing

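Over 13 alternatives Lsm5, Lsm6, Lsm2 and Lsm3 kept negative log2 fold changes (-1.84 to -1.04, -0.77 to -0.44, -0.58 to -0.25 and -0.57 to -0.22), and Lsm1 kept a positive one (0.05 to 0.23). Lsm4 reversed to -0.16 without Cnot3 +/+ replicate 1 and to -0.0084 without Cnot3 fl/fl replicate 2, and reached 0.28 without Cnot3 +/+ replicate 2. Lsm6 was also called with pseudocounts of 0.1 and 5, a minimum mean of 5 FPKM, quantile normalization, equal median ratios, either other prior and the replicate block. No scaling moved the median of all genes by over 0.1.

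With no filter on low values, where 16296 genes were tested, limma called 0 ring genes (3 at an unadjusted p under 0.05, where 26.9% of all genes passed), 4 genes higher and 1 lower in all, and 0 in each of the other LSM, Sm, U6 and CCR4-NOT lists. With one library left out, which leaves 1 library in a genotype and assumes that it varies like the other genotype, it called 0 ring genes each time (2 to 4 at an unadjusted p under 0.05, where 18.7% to 29.6% of all genes passed), 2 to 18 genes higher, 0 to 13 lower and 0 in each of those lists. Without the mean-variance trend, 242 genes were higher and 69 lower, with 1 call in the Sm list and 0 in the other LSM, U6 and CCR4-NOT lists. The cause was not tested.

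With the replicate number as a block, 456 genes were higher and 270 lower (685 and 361 without it), with 2 calls in the ring and 1 each in the other LSM and U6 lists. Same-numbered libraries shared only a number by the labels, and their deviations from the genotype means correlated at 0.14 across genes. Read counts were not given, so the counting error of low values, such as those of Lsm7, could not be estimated.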
